A study of Mus musculus with 2 samples.

Results

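The Notch receptors and their ligands were followed through cells that carry a Nestin-GFP reporter and were sorted from adult mouse brain and lung. The members were fixed as 9 named genes, the 4 receptors Notch1, Notch2, Notch3 and Notch4 and the 5 ligands Dll1, Dll3, Dll4, Jag1 and Jag2, out of 25814 genes with a count in either library. All 9 had counts in both libraries. The samples were GFP-positive (Nes-GFP+) cells of brain and of lung from mice of about 6 weeks of age, with 1 droplet library of single cells from each tissue. The labels give the strain as C57BL/6, whereas the methods of the study describe wild-type stock of CD1 or mixed CD1 and C3H background with which the reporter mice were bred. Both groups carried the reporter and no other treatment was named. In the study, the reporter served to enrich neural stem cells (NSCs) for a single-cell description of such cells outside the brain.

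Notch receptors are single-pass membrane proteins that are activated by ligands on neighbouring cells. Ligand binding lets a metalloprotease and then the γ-secretase complex cut the receptor, and the freed intracellular domain enters the nucleus and joins the DNA-binding protein RBPJ. Genes switched on in this way include the transcriptional repressors of the Hes and Hey families and Nrarp, a feedback inhibitor. Dll1, Dll4, Jag1 and Jag2 activate receptors on adjacent cells, whereas Dll3 is mostly retained inside the cell and is known as an inhibitor in the cell that makes it. In the adult brain, Notch signalling keeps neural stem cells undivided. In vessels, Dll4 and Notch4 are known from endothelial cells and Notch3 from the smooth muscle cells and pericytes of the wall, the mural cells, while Jag1 and Notch1 act in both layers.

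The brain table held 4640 cell barcodes with 26221173 unique molecular identifiers (UMIs), and that of the lung 5981 barcodes with 36816962 UMIs. Filtering left 4151 brain cells with a median of 4209 UMIs and 5608 lung cells with a median of 5585 UMIs. The libraries shared 15 barcodes before and 11 after filtering. Cells were clustered without the members, their targets or the other pathway genes, and clusters were named from marker lists and called "-like". The brain library gave 557 astrocyte-like, 271 quiescent NSC-like (qNSC-like), 278 activated NSC-like (aNSC-like), 345 cycling, 1365 neuroblast-like (NB-like) and 230 oligodendrocyte progenitor-like (OPC-like) cells, with 329 endothelial-like, 168 mural-like and 66 fibroblast-like cells. Smaller brain classes were 170 mature oligodendrocyte-like, 125 ependymal-like and 34 microglia-like cells. The lung library gave 1890 pericyte-like, 613 endothelial-like, 583 matrix fibroblast-like, 564 myofibroblast-like, 324 cycling, 275 smooth muscle-like, 122 T cell-like, 35 epithelial-like and 33 neural-like cells. Unnamed clusters held 213 brain and 1169 lung cells. With 1 library per tissue there was no replicate and no test, so tissue and library cannot be told apart.

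The markers that named the classes were counted per cell, which describes the labels and is no independent check of them. Brain endothelial-like cells had UMIs of a median of 11 of 12 endothelial markers, and brain mural-like cells of 10 of 12 mural markers. Lung endothelial-like cells had 10 of 12 endothelial and pericyte-like cells 8 of 12 mural markers. The aNSC-like cluster had a median of 6 of 10 aNSC markers and also of 11 of 14 NB markers, so that by these lists it lay between stem cells and neuroblasts. The qNSC-like class rested on weaker evidence, with a median of 3 of 8 qNSC and 3 of 8 astrocyte markers per cell and summed qNSC markers of 2801 CPM, against 2629 CPM in aNSC-like and 5212 CPM in NB-like cells. Its summed astrocyte markers had 1964 CPM, against 413 and 27.1 CPM. Lung smooth muscle-like cells had a median of 6 of 8 smooth muscle and 6 of 12 mural markers, and their larger cluster, cluster 8, scored 2.38 for smooth muscle against 1.87 for mural markers and had no smooth muscle marker among its 10 leading genes. Summed NB markers in the aNSC-like class reached 7857 CPM (the UMIs of a gene in a class scaled to a fixed total of the class) against 16970 CPM in the NB-like class. The lung neural-like cluster was led by genes that include Gfra3, Foxd3 and Sox10, known from glia of peripheral nerve. The epithelial-like cluster of the lung library was led by genes that include Ccl21a, Krt17, Cd74, Krt5, H2-Ab1 and Krt14. Only 4 of 9 epithelial markers were found in 20% of its cells, so its place in lung epithelium is not settled by these lists.

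Levels are given as CPM of the summed UMIs of a class with an exact 95% Poisson interval, and differences as ratios of CPM with an exact 95% interval. All intervals cover counting error only. Since 3′ tags were counted, levels compare classes for the same gene and not genes with each other. A gene is called past 2-fold where its ratio was at least 2 or at most 0.5 and both classes together held at least 20 UMIs. In the annotation of build GRCm38, Notch1 lies on chromosome 2 (26457903 to 26516663, minus strand), Notch2 on chromosome 3 (98013527 to 98150361, plus strand), and Notch3 (32120820 to 32166852, minus strand) and Notch4 (34564268 to 34588503, plus strand) on chromosome 17. Dll1 lies on chromosome 17 (15367354 to 15376872, minus strand), Dll3 on chromosome 7 (28293553 to 28302238, minus strand), and Jag2 on chromosome 12 (112907819 to 112929776, minus strand). Dll4 (119325784 to 119335962, plus strand) and Jag1 (137081456 to 137116644, minus strand) both lie on chromosome 2. Dll4 overlaps the antisense gene Gm14207, which had 130 brain and 436 lung UMIs of its own, and Notch1 overlaps 0610009E02Rik, which had 74 and 40. Exons of Dll1 and Notch3 are also touched by genes on the opposite strand. These were A930024N18Rik for Dll1, with 31 brain and 12 lung UMIs, and Gm17276 for Notch3, with 12 and 68. The strand setting of the counting is not given in the sources used here, so reads of these pairs may have been split between partners.

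**Figure D1:**
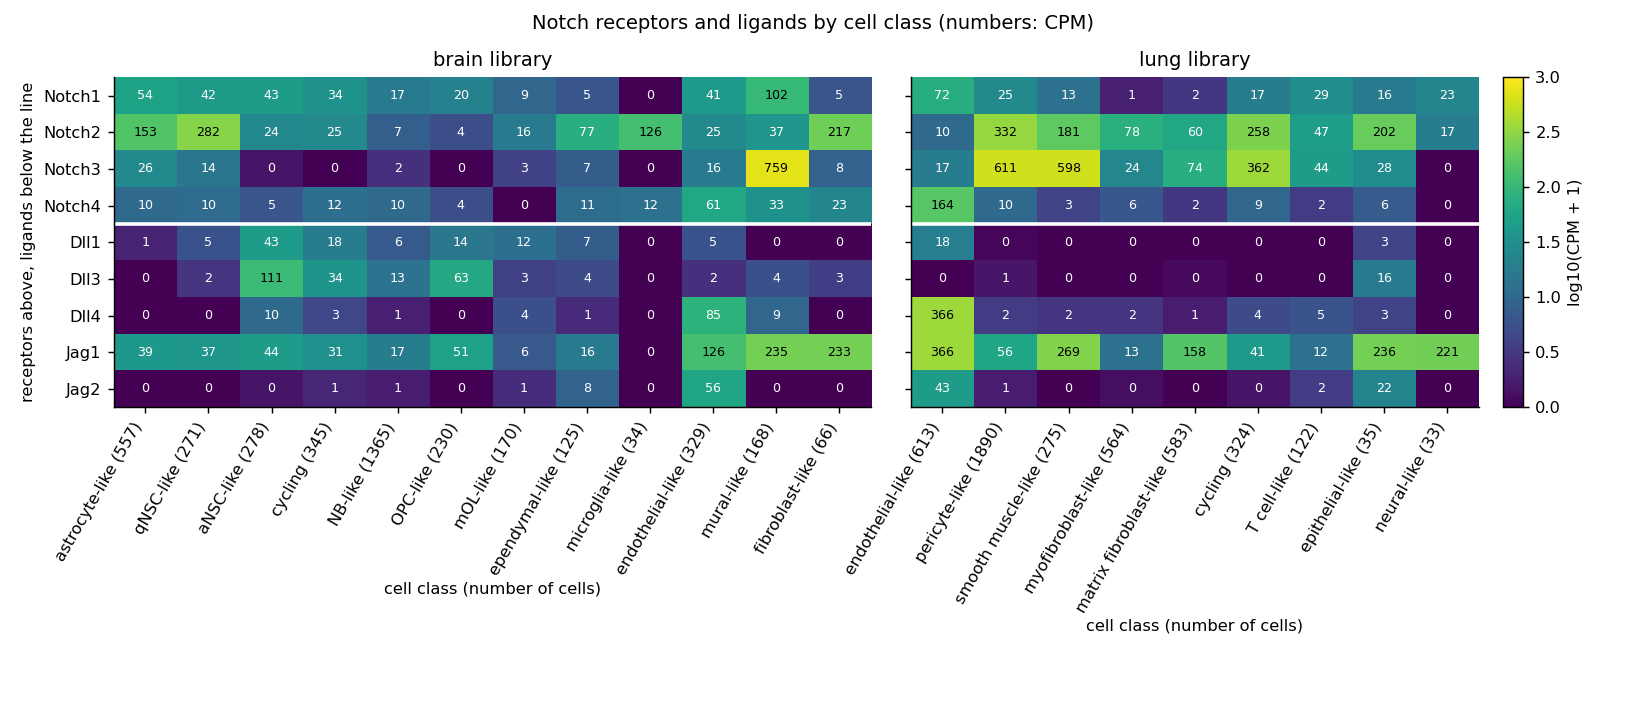
Levels of the 9 members (rows, receptors above the white line and ligands below) in each named class (columns, with cell numbers) of the brain and lung libraries; numbers are CPM and colour is log10(CPM + 1). Notch3 peaks in the mural-like, pericyte-like and smooth muscle-like columns, Dll4 and Jag2 in both endothelial-like columns, and Dll1 and Dll3 in the aNSC-like column.

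The receptors were unevenly divided among the classes, and brain mural-like cells led for both Notch1 and Notch3. Notch3 was highest in brain mural-like cells at 759 CPM (682 to 843), followed by lung pericyte-like cells at 611 CPM (595 to 627) and smooth muscle-like cells at 598 CPM (561 to 638), with overlapping intervals for the last pair. Notch2 was highest in lung pericyte-like cells at 332 CPM (321 to 344), and qNSC-like cells at 282 CPM (251 to 316) and lung cycling cells at 258 CPM (237 to 281) came next, again with overlapping intervals. In brain fibroblast-like cells Notch2 had 217 CPM (174 to 269), and the other receptors had 23.0 CPM or less. Notch4 was led by lung endothelial-like cells at 164 CPM (151 to 178), ahead of brain endothelial-like cells at 61.1 CPM (48.2 to 76.3). Notch1 was led by several classes. Brain mural-like cells had 102 CPM of Notch1 (75.1 to 136), lung endothelial-like cells 72.1 CPM (63.5 to 81.6) and astrocyte-like cells 53.9 CPM (44.4 to 64.7), each interval overlapping the next.

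Ligands other than Jag1 were held by few classes. Dll4 reached 366 CPM (346 to 386) in lung endothelial-like cells and 84.8 CPM (69.5 to 103) in brain endothelial-like cells, and no other class exceeded 9.90 CPM. Jag2 showed the same pair of classes, with 56.3 CPM (44.0 to 71.0) in brain and 42.9 CPM (36.3 to 50.4) in lung endothelial-like cells, and the interval of the lung class overlapped that of the brain class. Dll3 was led by aNSC-like cells at 111 CPM (97.1 to 126) and OPC-like cells at 63.0 CPM (50.5 to 77.6). Dll1 was led by aNSC-like cells at 42.9 CPM (34.5 to 52.7), and the only lung class with more than 1 UMI of it was the endothelial-like class with 64 UMIs (18.3 CPM, 14.1 to 23.4). Jag1 had 366 CPM (346 to 386) in lung endothelial-like cells and then fell in a group of classes whose neighbouring intervals overlapped, namely lung smooth muscle-like (269 CPM), lung epithelial-like (236 CPM), brain mural-like (235 CPM), brain fibroblast-like (233 CPM) and lung neural-like cells (221 CPM).

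By RNA level alone, a class was listed as a sender or receiver for a member where its CPM was at least 2 times that of all kept cells of its library and the lower bound of its interval lay above that level. Of 189 pairs of a class and a member, 28 were listed. Over genes with at least 20 UMIs in the library, 27 of 180 such pairs were listed for members, against 7.73% of the pairs of all genes. Receptors gave 8 of 48 pairs in brain and 4 of 36 in lung, and ligands 8 of 60 and 8 of 45. Brain mural-like cells were listed for 3 receptors, at 32.2 times the library level for Notch3, 3.41 times for Notch1 and 2.53 times for Notch4, and for Jag1 at 5.37 times. Brain endothelial-like cells were listed for Notch4 and for 3 ligands, with Jag2 at 12.8, Dll4 at 10.6 and Jag1 at 2.88 times. Lung endothelial-like cells were the only class listed for 4 ligands (Dll1, Dll4, Jag1 and Jag2) and were also listed for Notch1 and Notch4. The NB-like class, the largest in brain, was listed for no member. In lung pericyte-like cells Notch3 was listed (2.23 times), Notch2 at 332 CPM fell just short (1.98 times) and no ligand was listed. These cells were 33.7% of the kept lung cells and so weigh on the library level, and times the library level therefore do not compare between the libraries. Among small classes, the 35 epithelial-like cells, led by genes that include Ccl21a, Krt5 and Krt14, were listed for Jag1, Jag2 and Dll3. The listing for Dll3 came from 5 UMIs. The 34 microglia-like cells were listed for Notch2 at 126 CPM (78.3 to 193).

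Cells of the brain lineage differed in which side of the pathway they carried. Of the 9 members, 7 had at least 20 UMIs over qNSC-like and aNSC-like cells, and 4 were past 2-fold, against 41.4% of all genes tested in this contrast. Notch2 was the receptor among them. It had 303 UMIs and 282 CPM (251 to 316) in qNSC-like cells, 51 UMIs and 24 CPM (17.9 to 31.6) in aNSC-like cells, 24.7 CPM in cycling cells and 7.20 CPM (5.19 to 9.73) in NB-like cells. The level in qNSC-like cells was 11.7 times (8.70 to 16.1) that in aNSC-like cells, and astrocyte-like cells, with 153 CPM (136 to 170), lay between. Notch2 UMIs were present in 54.6% of qNSC-like cells (48.5 to 60.6%, exact binomial, median depth 3641 UMIs) and in 2.78% of NB-like cells (1.98 to 3.80%, 4125 UMIs), and after thinning of each cell to 1000 UMIs in 22.5% and 0.795%. Notch1 did not follow Notch2, with 41.9 CPM in qNSC-like and 42.9 CPM in aNSC-like cells, a ratio of 0.977 (0.668 to 1.41). Notch4 had 11 UMIs in each class, at 10.2 and 5.19 CPM, and its ratio of 1.97 (0.776 to 5.02) was 11.2 with the marker gate. The Notch2 ratio was 5.79 and 5.75 when both classes were set by a marker gate or a finer clustering. These gave 140 and 361 qNSC-like cells and 66 and 115 aNSC-like cells. No aNSC-like cluster was named under 3 other settings. With called doublets removed, 2 of the 278 cells were doublets and 275 stayed together in a cluster too close to the NB list to be named.

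The Delta ligands ran the other way. Dll3 had 2 UMIs in qNSC-like and 235 UMIs in aNSC-like cells, a qNSC-like over aNSC-like ratio of 0.0168 (0.00202 to 0.0614). Dll1 had 5 and 91 UMIs and was 9.22 times (3.81 to 29.1) higher in aNSC-like cells. Dll4, an endothelial ligand by its leading classes, had no UMI in qNSC-like cells and 21 in aNSC-like cells, at least 3.54-fold higher in the latter. Jag1 had 37.2 and 44.3 CPM and a ratio of 0.840 (0.565 to 1.23), but it was past 2-fold lower in qNSC-like cells with the marker gate (0.307) and the finer clustering (0.47). Dll3 UMIs were found in 38.5% (32.7 to 44.5%) of aNSC-like and 0.738% (0.0895 to 2.64%) of qNSC-like cells, or 8.89% and 0.165% after thinning, at median depths of 7740 and 3641 UMIs. The 2 members under 20 UMIs were Notch3, with 15 and 1 UMIs, and Jag2, with 0 and 1.

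Target genes were higher on the side of Notch2. Hes5, a target known from neural progenitors, had 804 CPM in qNSC-like, 816 CPM in astrocyte-like, 149 CPM in aNSC-like and 4.97 CPM in NB-like cells. Its qNSC-like over aNSC-like ratio was 5.4 (4.74 to 6.16). Hes1 had a ratio of 10.1 (6.32 to 16.7) and Hey1 of 3.83 (2.07 to 7.34), whereas Nrarp, at 1.95 (1.42 to 2.68), stayed within 2-fold. Of 40 other pathway genes, 32 reached 20 UMIs. Of these, 10 were past 2-fold, against 41.4% of all genes, 7 higher in qNSC-like and 3 in aNSC-like cells. Furthest from 1 were Dlk1, a non-canonical ligand (35 and 1 UMIs, ratio 69.1, 11.6 to 2807), the fringe glycosyltransferase Mfng (0.0467), the adhesion protein Cntn1 (12.7), the γ-secretase subunit Psen2 (11) and Dtx4 (10.5), a ubiquitin ligase of the Deltex family.

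**Figure D2:**
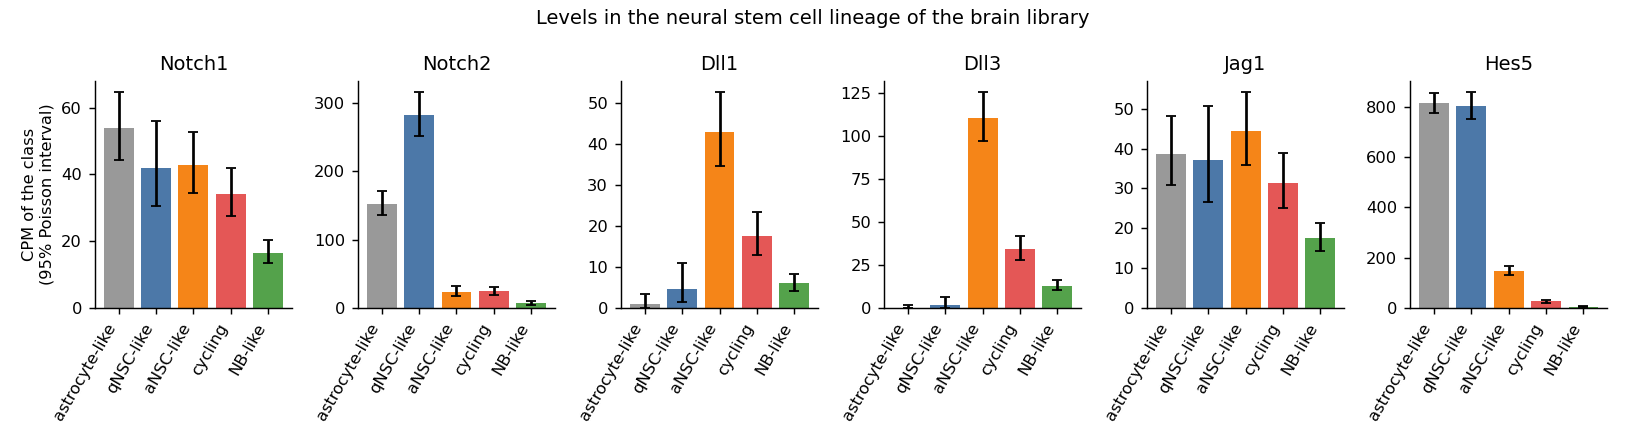
Bars give CPM with the 95% Poisson interval in astrocyte-like, qNSC-like, aNSC-like, cycling and NB-like cells of the brain library, with 1 panel per gene and its own axis. Notch2 and Hes5 are high in the first pair of classes, while Dll1 and Dll3 are highest in aNSC-like cells, at 42.9 and 111 CPM.

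From aNSC-like to NB-like cells most members were lower. Of 7 members with at least 20 UMIs, 6 were past 2-fold and all 6 were higher in aNSC-like cells, against 24% of all genes past 2-fold in either direction. Dll4 had 21 and 5 UMIs and a ratio of 11.5 (4.24 to 39.2). Dll3 fell from 111 to 13 CPM, a ratio of 8.50 (6.54 to 11.2), and Dll1 from 42.9 to 6.00 CPM, a ratio of 7.15 (4.79 to 10.9). The ratios of Notch2 (3.34, 2.18 to 5.15), Notch1 (2.58, 1.92 to 3.47) and Jag1 (2.53, 1.89 to 3.39) were also above 2. Notch4 had 5.19 CPM in aNSC-like and 9.77 CPM in NB-like cells, a ratio of 0.531 (0.251 to 1.02). With the marker gate the ratios were 7.23 for Jag1, 3.70 for Notch1 and 0.173 for Notch4, and at the finer clustering 15.99 for Dll3, 15.7 for Dll1, 6.95 for Notch2, 4.68 for Jag1 and 4.02 for Notch1. Hes5 dropped further than any member with a ratio of 29.96 (20.5 to 45.5), and Hes1, Nrarp and Hey1 had ratios of 7.56, 6.44 and 4.25. Of 32 other pathway genes, 6 were past 2-fold. Rbpj, the DNA-binding partner of the receptors, had a ratio of 2.04, Neurl1b, a ubiquitin ligase for ligands, of 2.29, and Cntn1 of 0.338, Maml3, a co-activator, of 0.390 and Aph1b, a γ-secretase subunit, of 0.402.

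Sequence upstream of the transcription start is shown for the ligands whose windows held an E-box and for Hes5, because Dll1 and Dll3 were higher and Hes5 was lower in aNSC-like than in qNSC-like cells. All 9 members matched RefSeq promoters (build GRCm38.p6), and Dll1 had 2 starts, which gave 10 windows of 250 bases before the start. Both strands were searched for the E-box CAGCTG, a motif of basic helix-loop-helix factors, and for the RBPJ core TGGGAA, which reads as TTCCCA on the other strand. The E-box was present in 3 of 10 member windows, those of Dll1, Dll3 and Jag1, and in 13% of 32851 mouse promoter windows. The RBPJ core was in none of the 10 member windows and in 21.6% of all windows. Of the 3 target genes with a window, Hes5 held 2 copies, Hey2 held 1 and Nrarp held none. The first base of the E-box lay 132 bases before the start in Dll1, 7 in Dll3 and 82 in Jag1, and the RBPJ cores of Hes5 lay 226 and 82 bases before its start. Capitals mark the motifs, and a match of letters is a description and not a bound site. The windows of Dll3 and Jag1 overlap exons of the GENCODE annotation, in which these genes start further upstream than in RefSeq, so only 30 bases are shown for each. The windows lie at chr17:15376933-15377182 (minus strand) for Dll1 and chr4:154960673-154960922 (plus strand) for Hes5, and the shorter stretches at chr7:28301786-28301815 (minus strand) for Dll3 and chr2:137116585-137116614 (minus strand) for Jag1.
Dll1: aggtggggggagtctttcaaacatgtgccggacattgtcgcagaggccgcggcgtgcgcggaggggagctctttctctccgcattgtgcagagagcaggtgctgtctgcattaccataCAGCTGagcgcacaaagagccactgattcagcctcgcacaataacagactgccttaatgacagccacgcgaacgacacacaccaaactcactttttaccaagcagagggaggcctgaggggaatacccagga
Dll3: aaatataagactccggcatccagCAGCTGc
Jag1: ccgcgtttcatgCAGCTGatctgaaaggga
Hes5: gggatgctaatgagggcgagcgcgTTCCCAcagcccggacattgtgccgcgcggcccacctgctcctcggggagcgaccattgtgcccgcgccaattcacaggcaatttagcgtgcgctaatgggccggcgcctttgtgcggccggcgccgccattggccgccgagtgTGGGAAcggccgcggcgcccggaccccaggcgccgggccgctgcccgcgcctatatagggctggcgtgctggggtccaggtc

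Within the aNSC-like class, cells with a Dll1 UMI also had more of other ligands. The 62 cells with a Dll1 UMI (median 8958.5 UMIs) were set against the 216 without (7459.5 UMIs). Jag1 was 3.47 times (2.27 to 5.33), Dll4 3.36 times (1.29 to 8.82) and Dll3 2.38 times (1.82 to 3.11) higher in cells with Dll1, as were Nrarp by 2.06 times (1.28 to 3.26) and Notch1 by 1.66 times (1.04 to 2.59). Hes5 had 159 CPM in cells with Dll1 and 146 CPM in those without, a ratio of 1.09 (0.836 to 1.4), and this ratio was 0.341 and 0.418 in smaller aNSC-like classes set by other rules. In the 107 cells with a Dll3 UMI, Dll1 was 3.62 times (2.24 to 6.03) higher than in the other 171, while the intervals of Dll4 (1.73, 0.668 to 4.64), Jag1 (1.0, 0.650 to 1.53) and Hes5 (0.917, 0.727 to 1.15) held 1. In cycling cells, the 31 with a Dll1 UMI (median 9944 UMIs) had 4.75 times (2.81 to 7.88) the Hes5 level of the 314 without (8211 UMIs). The deeper cells were those with the ligand UMI in each split, and the part of depth was not tested.

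OPC-like cells formed the other Dll3 class, and their clusters differed. Cluster 12, led by genes that include Pdgfra and C1ql1, had 165 CPM of Dll3, 129 CPM of Jag1, 40.2 CPM of Dll1 and 143 CPM of Hes5. Cluster 14, led by genes of more advanced oligodendrocyte cells such as Enpp6 and Gpr17, had 6.66 CPM of Dll3, 7.77 CPM of Jag1 and no UMI of Dll1. Receptors were low in the class, with 20.03 CPM (13.3 to 28.9) of Notch1 and 4.29 CPM each of Notch2 and Notch4.

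In brain vessels the question is which partner carries ligand and which receptor. Of 7 members with at least 20 UMIs over brain endothelial-like and mural-like cells, 4 were past 2-fold, against 33.1% of all genes. Notch3 had 20 UMIs and 15.9 CPM (9.69 to 24.5) in endothelial-like and 349 UMIs and 759 CPM in mural-like cells, 47.9 times (30.5 to 79.4) higher in the latter. Notch1 was also higher in mural-like cells, at 102 against 41.2 CPM, an endothelial-like over mural-like ratio of 0.403 (0.267 to 0.611). Dll4 had 107 and 4 UMIs and was 9.75 times (3.70 to 36.4) higher in endothelial-like cells. Jag2 had 71 UMIs in endothelial-like cells and none in mural-like cells, at least 8.62-fold higher. Jag1 was higher in mural-like cells, 235 against 126 CPM, within 2-fold (0.537, 0.418 to 0.692). Notch4 (1.87, 1.07 to 3.5) and Notch2 (0.665, 0.357 to 1.28) were within 2-fold as well.

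Notch3 UMIs were present in 81.5% of mural-like cells (74.8 to 87.1%, median 2555.5 UMIs), 4.86% of endothelial-like cells (2.80 to 7.78%, 3798 UMIs) and 0.22% of NB-like cells (0.0453 to 0.641%), and after thinning in 51.2%, 1.80% and 0.0856%. Dll4 UMIs were in 22.5% (18.1 to 27.4%) of brain endothelial-like and 0.366% (0.119 to 0.853%) of NB-like cells, or 8.21% and 0.0975% after thinning. Marker RNA of each partner was also present in the other. Summed mural markers had 42368 CPM in mural-like and 782 CPM in endothelial-like cells, and summed endothelial markers 23672 CPM in endothelial-like and 1256 CPM in mural-like cells. The part of this RNA in the low levels was not tested.

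Target genes split between the vessel classes too. The Hey2 and Heyl repressors belonged to mural-like cells. Heyl had 9 and 203 UMIs and was 61.9 times (32.0 to 137) higher in mural-like cells, and Hey2 had 1 and 70 UMIs, a ratio of 192 (33.4 to 7694). Nrarp was also higher in mural-like cells, by 2.48 times (1.54 to 3.96), and Hey1 was 4.30 times (1.74 to 13.7) higher in endothelial-like cells. Of 28 other pathway genes tested, 10 were past 2-fold, against 33.1% of all genes, 6 higher and 4 lower in endothelial-like cells. The fringe enzymes Lfng (26.6, 4.63 to 1065, 1 UMI in mural-like cells) and Mfng (24.1) and the secreted vessel protein Egfl7 (49.3) were higher, and Dtx4 (0.0197) and Dtx3 (0.0471) were lower.

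Lung endothelial-like and pericyte-like cells were compared in the same way. Of 8 members with at least 20 UMIs, all 8 were past 2-fold, against 32.3% of all genes. Dll3, with 5 UMIs, fell short of the minimum. Ligands and 2 receptors were higher in endothelial-like cells. Dll4 had 1279 and 22 UMIs and a ratio of 161 (106 to 257), and Jag2 had 150 and 7 UMIs and a ratio of 59.2 (28.0 to 150). Dll1 had 64 UMIs and 1 UMI, a ratio of 177 (30.6 to 7088), or at least 17.2-fold against pericyte-like cells with few smooth muscle markers, which had no UMI. Jag1 was higher by 6.49 times (5.86 to 7.18), Notch4 by 17 times (13.6 to 21.4) and Notch1 by 2.86 times (2.39 to 3.43). The other receptors were pericyte-like. Notch3 had 17.2 CPM (13.1 to 22.1) in endothelial-like and 611 CPM in pericyte-like cells, 35.6 times (27.6 to 46.7) higher in the latter, and Notch2 had 10.0 CPM (6.97 to 13.9) and 332 CPM, 33.2 times (23.8 to 47.8) higher. Without the upper limit on genes per cell these endothelial-like over pericyte-like ratios were 0.0507 for Notch3 and 0.0595 for Notch2, against 0.0281 and 0.0301.

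Shares of cells with a UMI followed the levels. Dll4 UMIs were present in 72.9% of lung endothelial-like cells (69.2 to 76.4%, median 5399 UMIs) and 0.686% of matrix fibroblast-like cells (0.187 to 1.75%, 9301 UMIs), or 29.9% and 0.12% after thinning. Notch3 UMIs were in 91.7% (90.4 to 92.9%) of pericyte-like and 5.22% (3.60 to 7.29%) of endothelial-like cells, or 45.7% and 1.28% after thinning. Summed mural markers had 475 CPM in lung endothelial-like cells against 18040 CPM in pericyte-like cells, and the Notch3 ratio was 0.0089 and the Notch2 ratio 0.0182 when cells called doublets were removed before clustering. Hey1 paralleled Dll4, with 420 CPM in endothelial-like and 2.59 CPM in pericyte-like cells, a ratio of 162 (109 to 252). Nrarp was 2.79 times (2.56 to 3.05) higher in endothelial-like cells, and Heyl 27.4 times (20.1 to 38.2) higher in pericyte-like cells. Of 35 other pathway genes, 16 were past 2-fold, against 32.3% of all genes, 8 higher and 8 lower in endothelial-like cells. Those furthest from 1 were Mfng (768, 212 to 6354, 2 UMIs in pericyte-like cells), Lfng (251, 44.0 to 10033, 1 UMI), Egfl7 (168), Neurl3 (130, 34.9 to 1087) and Dtx4 (0.0174).

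**Figure D3:**
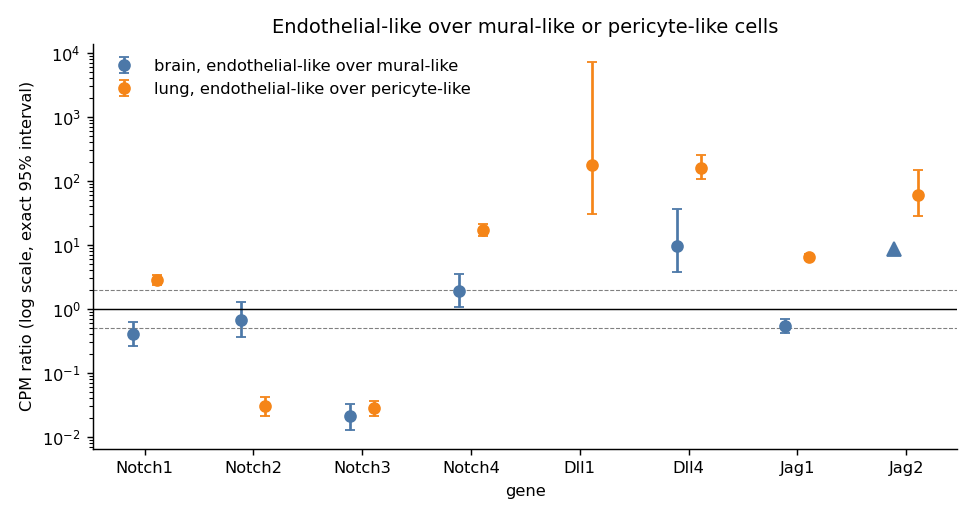
Points give the CPM ratio (log axis) of endothelial-like over mural-like cells in brain and over pericyte-like cells in lung for the 8 members other than Dll3, with exact 95% intervals; dashed lines mark 2-fold either way, the triangle is the lower bound of Jag2 in brain (8.62), and Dll1 in brain, under 20 UMIs, is not drawn. Notch3 lies far below 1 and Dll4 above 1 in both libraries, whereas Jag1 (0.537 and 6.49) and Notch1 (0.403 and 2.86) lie on opposite sides of 1.

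Lung smooth muscle-like cells had more Jag1 than pericyte-like cells. Of 6 members with at least 20 UMIs, 2 were past 2-fold, against 18.3% of all genes. Jag1 had 269 CPM in smooth muscle-like and 56.4 CPM (51.7 to 61.3) in pericyte-like cells, a ratio of 4.76 (4.19 to 5.42). Notch4, with 5 and 93 UMIs, had a ratio of 0.327 (0.104 to 0.791). The level of Notch3 did not separate the classes (0.979, 0.913 to 1.05), and Notch2 (0.544, 0.481 to 0.614) and Notch1 (0.501, 0.301 to 0.791) were just within 2-fold. With a marker gate in place of clusters 6 of 6 members were past 2-fold, against 24% of all genes, with Notch3 at 0.377 and Jag1 at 6.38. When called doublets were removed before clustering, 5 of the 275 smooth muscle-like cells were among them, but the cluster that then held 191 of the others no longer led by enough over the mural list to be named. The smooth muscle-like class then held 74 cells in 1 cluster, while 3 others fell in a pericyte-like and 2 in another unnamed cluster. With this class 5 of 6 members were past 2-fold, against 32% of all genes, with Notch3 at 0.358 and Jag1 at 11.4. Hey2 was 3.97 times (3.07 to 5.11) and Hey1 2.68 times (1.19 to 5.64) higher in smooth muscle-like cells. Of 32 other pathway genes, Dlk1 (13.8) and the matrix protein Mfap5 (4.92) were higher and Aph1a (0.277) and Maml3 (0.473) lower.

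These classes were not uniform. The smooth muscle-like cluster 17, led by contractile genes such as Actc1, Cnn1 and Acta2, had 652 CPM of Jag1, 218 CPM of Notch3 and 89.0 CPM of Notch2, whereas cluster 8 had 117, 748 and 217 CPM. Against pericyte-like cells, cluster 17 alone had ratios of 11.6 for Jag1, 0.357 for Notch3, 0.268 for Notch2 and 0.265 (0.0543 to 0.784) for Notch1, with 5 of 6 members past 2-fold against 32.2% of all genes, and cluster 8 alone had 2.08 for Jag1 and 1.23 for Notch3. Among pericyte-like clusters, cluster 13, led by genes that include Rgs5, Steap4 and Procr, stood apart with 385 CPM of Jag1 and 39.7 CPM of Notch2. Clusters 0 and 5 had 36.6 and 42.4 CPM of Jag1 and 338 and 443 CPM of Notch2. Notch3 was high in all 3, at 581, 694 and 907 CPM. The profile of cluster 13 lay closer to brain mural-like cells, with 235 CPM of Jag1, 37.0 CPM of Notch2 and 759 CPM of Notch3, than those of clusters 0 and 5 did for Jag1 and Notch2.

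**Figure D4:**
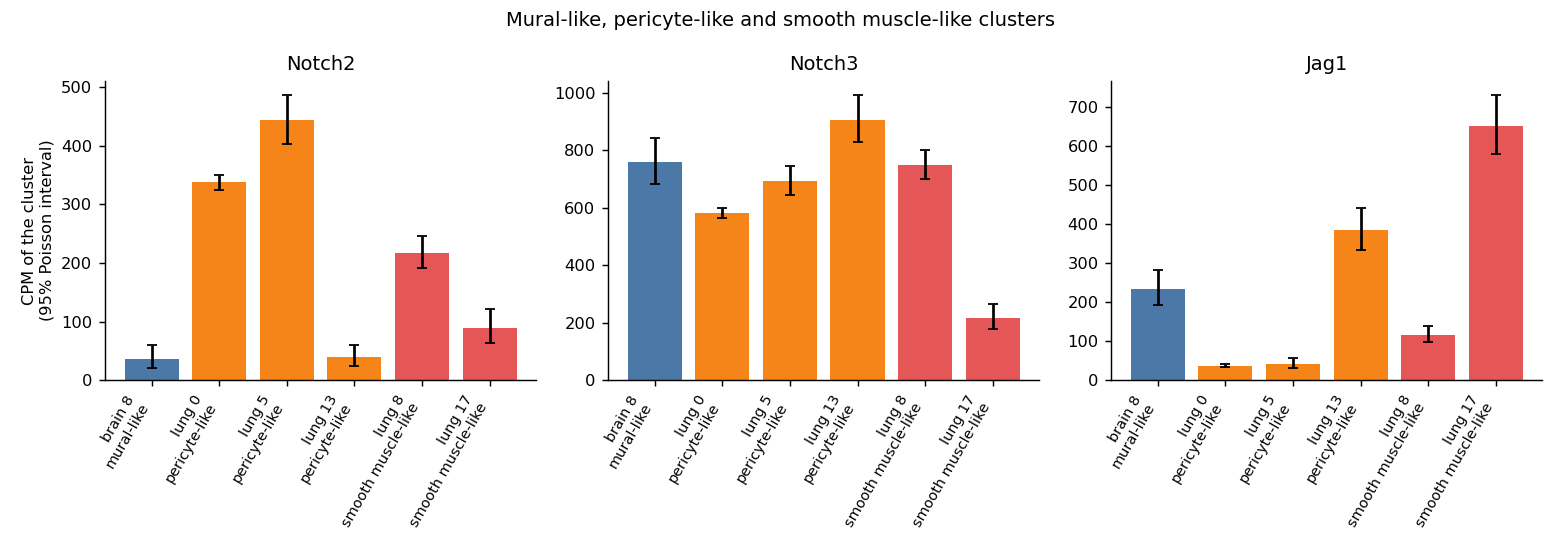
Bars give CPM with the 95% Poisson interval in the brain mural-like cluster (blue), 3 lung pericyte-like clusters (orange) and 2 lung smooth muscle-like clusters (red), with 1 panel per gene and its own axis. Jag1 is high in the brain cluster (235 CPM), pericyte-like cluster 13 (385 CPM) and smooth muscle-like cluster 17 (652 CPM), and Notch2 is low in each of them.

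Matching vessel classes were then set side by side between the libraries. Of 8 members with at least 20 UMIs over both endothelial-like classes, 5 were past 2-fold, against 25.1% of all genes. Dll4 was 4.31 times (3.54 to 5.30), Dll1 3.85 times (1.67 to 10.9), Jag1 2.90 times (2.46 to 3.44) and Notch4 2.68 times (2.11 to 3.45) higher in lung, and Notch2 was lower (0.407, 0.244 to 0.683). Notch1 (1.75, 1.29 to 2.40), Notch3 (1.08, 0.643 to 1.90) and Jag2 (0.762, 0.571 to 1.03) were within 2-fold, although the Notch3 ratio was 0.364 with called doublets removed and the Notch2 ratio was 0.838 with no upper limit on genes per cell. Hey1 was 8.98 times (6.92 to 11.9) and Nrarp 8.85 times (6.48 to 12.4) higher in lung, while Hes1 had 234 and 200 CPM. Arterial markers differed too, with Gja4 at 1109 and 34.1 CPM and Efnb2 at 919 and 44.4 CPM in lung and brain. Among the arterial markers listed below, only Gkn3 was lower in lung, at 33.2 against 251 CPM. Their part in these ratios was not tested, and levels by number of arterial markers are given below. Of 32 other pathway genes, 4 were higher and 2 lower in lung. Neurl3 (at least 11.3-fold), Mfap5 (at least 6.37-fold) and Neurl1b (3.85) were higher, and Lfng (0.450) and Mib2 (0.477), a ubiquitin ligase for ligands, were lower.

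Lung pericyte-like cells, summed over their clusters, had more Notch2 and less of several other members than brain mural-like cells. Of 6 members with at least 20 UMIs over lung pericyte-like and brain mural-like cells, 5 were past 2-fold, against 30.2% of all genes. Notch2 was 8.99 times (5.60 to 15.4) higher in lung. Jag1 (0.240, 0.195 to 0.298), Notch1 (0.246, 0.180 to 0.344), Notch4 (0.295, 0.170 to 0.549) and Dll4 (22 and 4 UMIs, 0.262) were lower, with an interval for Dll4 that held 1 (0.0889 to 1.05). Summed endothelial markers had 523 CPM in lung pericyte-like and 1256 CPM in brain mural-like cells, the same direction as Dll4 and Notch4, and their part in these ratios was not tested. Notch3 had 611 and 759 CPM, a ratio of 0.804 (0.722 to 0.899). The Notch2 and Jag1 differences did not hold for each pericyte-like cluster. Clusters 0 and 5 followed the summed ratios. Cluster 13 had 39.7 CPM of Notch2 and 385 CPM of Jag1, against 37.0 and 235 CPM in brain mural-like cells. Notch1 and Notch4 reached at most 32.5 and 17.7 CPM in any pericyte-like cluster, against 102 and 32.6 CPM in brain mural-like cells. Hey2 was 9.13 times (6.80 to 12.2) higher in brain, and Heyl (0.727) and Hes1 (0.725) were within 2-fold. Of 32 other pathway genes, 5 were higher and 5 lower in lung, among them Neurl1b (3.47), Numbl (2.94), a paralogue of the Notch inhibitor Numb, and Adam17 (2.80), a metalloprotease, above, and Dtx3 (0.266) and Egfl7 (0.354) below.

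Fibroblasts expressed Jag1 in both libraries, at 158 CPM (148 to 169) in lung matrix fibroblast-like and 233 CPM (187 to 286) in brain fibroblast-like cells, a ratio of 0.680 (0.548 to 0.854). Of 4 members with at least 20 UMIs, 3 were past 2-fold, against 32% of all genes. Notch3 had 398 UMIs and 74.2 CPM in lung and 3 UMIs and 7.67 CPM in brain, a ratio of 9.67 (3.29 to 47.1). Notch2 (0.275, 0.216 to 0.354) and Notch4 (11 and 9 UMIs, 0.0891, 0.0336 to 0.243) were lower in lung. Dll1 and Jag2 had no UMI in either class. Heyl was 2.75 times (1.77 to 4.53) higher in lung, and Hey2 at least 2.16-fold. Of 33 other pathway genes, 8 were higher and 6 lower in lung, with Mfap5 (15.4), Dlk1 (at least 7.61-fold), Dner (5.10), a non-canonical ligand, and Dtx4 (3.44) above and Aph1c (0.122) below. Lung myofibroblast-like cells had 78.3 CPM (69.4 to 87.9) of Notch2, above the 59.8 CPM (53.5 to 66.8) of matrix fibroblast-like cells, and 23.7 CPM of Notch3 and 12.7 CPM of Jag1.

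Dll4, Jag1 and Notch1 act in arterial identity, so endothelial-like cells were divided by how many of 9 arterial markers (Gja4, Gja5, Bmx, Sema3g, Efnb2, Gkn3, Vegfc, Fbln5 and Sox17) had a UMI. In brain, 83 cells with at least 2 such markers were compared with the other 246. Of 7 members with at least 20 UMIs, 3 were past 2-fold, against 7.49% of all genes. Jag1 was 2.44 times (1.76 to 3.37), Jag2 2.20 times (1.34 to 3.60) and Notch4 2.11 times (1.31 to 3.39) higher in arterial-marker cells, and Dll4 1.64 times (1.08 to 2.45). Hey1 was 4.94 times (2.81 to 8.94) higher. Among 24 other pathway genes only Lfng was past 2-fold (0.498). Cells with the markers were slightly deeper, with a median of 4006 against 3709 UMIs, and the part of depth was not tested.

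In lung, 582 endothelial-like cells had at least 2 of the arterial markers and 31 did not. Of 8 members with at least 20 UMIs, 6 were past 2-fold, against 21.7% of all genes. Dll4 (4.02, 2.39 to 7.37), Jag1 (3.51, 2.15 to 6.16), Notch1 (250 and 2 UMIs, 5.56, 1.52 to 46.2) and Notch4 (2.27, 1.26 to 4.58) were higher in arterial-marker cells, and the intervals of Jag2 (2.18, 0.731 to 10.7) and Notch3 (0.489, 0.197 to 1.57) held 1. Dll1 had 59 UMIs and 17.6 CPM against 5 UMIs and 33.6 CPM, a ratio of 0.525 (0.213 to 1.68), which became 1.47 (0.852 to 2.60) in the split at 6 markers described next. Hey1 was 21.7 times (7.42 to 106) higher. Since so few cells lacked the markers, a split at 6 markers was added, which set 330 cells against 283 and left 3 of 8 members past 2-fold, against 8.12% of all genes, of which Jag1 and Notch3 had been so in the split at 2 markers. Notch1 (1.29, 0.991 to 1.69), Notch4 (1.41) and Jag2 (1.14) fell within 2-fold. Jag1 then had 499 and 180 CPM (2.78, 2.42 to 3.20) and Dll4 431 and 275 CPM (1.57), and Notch2 (0.374) and Notch3 (0.415) were lower in cells with more markers. Of 32 other pathway genes, 9 were past 2-fold in the split at 2 markers, and the 5 furthest from 1 had intervals that held 1.

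Levels of Jag1, Dll4 and Hey1 were ordered by the number of arterial markers in both libraries, although intervals of neighbouring grades overlapped for Dll4 in brain (both pairs), for Jag1 in brain (the upper pair) and for Jag1 in lung (the lower pair). In brain, cells with 0 or 1, 2 to 5 and at least 6 markers (246, 72 and 11 cells) had 89.6, 191 and 376 CPM of Jag1, 71.9, 95.5 and 245 CPM of Dll4 and 22.1, 82.3 and 263 CPM of Hey1. In lung the same grades (31, 252 and 330 cells) had 107, 188 and 499 CPM of Jag1, 94.0, 295 and 431 CPM of Dll4 and 20.2, 266 and 549 CPM of Hey1. At equal grades the levels of these genes lay closer between the libraries than over the whole endothelial-like classes. By cluster the ligands differed in their order in lung. Endothelial-like cluster 4 had 424 CPM of Dll4 and 496 CPM of Jag1, cluster 11 had 330 and 89.5 CPM, and cluster 16 had 155 and 382 CPM. The median number of arterial markers was 6, 4 and 3 in these clusters, so Jag1 did not follow it from cluster 11 to cluster 16. The 271 lung endothelial-like cells with at least 2 venous markers had a median of 6 arterial markers as well and levels of 430 CPM of Jag1, 385 CPM of Dll4 and 464 CPM of Hey1. Lung cells with 0 to 5 and at least 6 arterial markers had median depths of 4815 and 5871 UMIs, and those with under 2 and at least 2 of 4852 and 5454 UMIs. The part of depth in these levels was not tested.

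**Figure D5:**
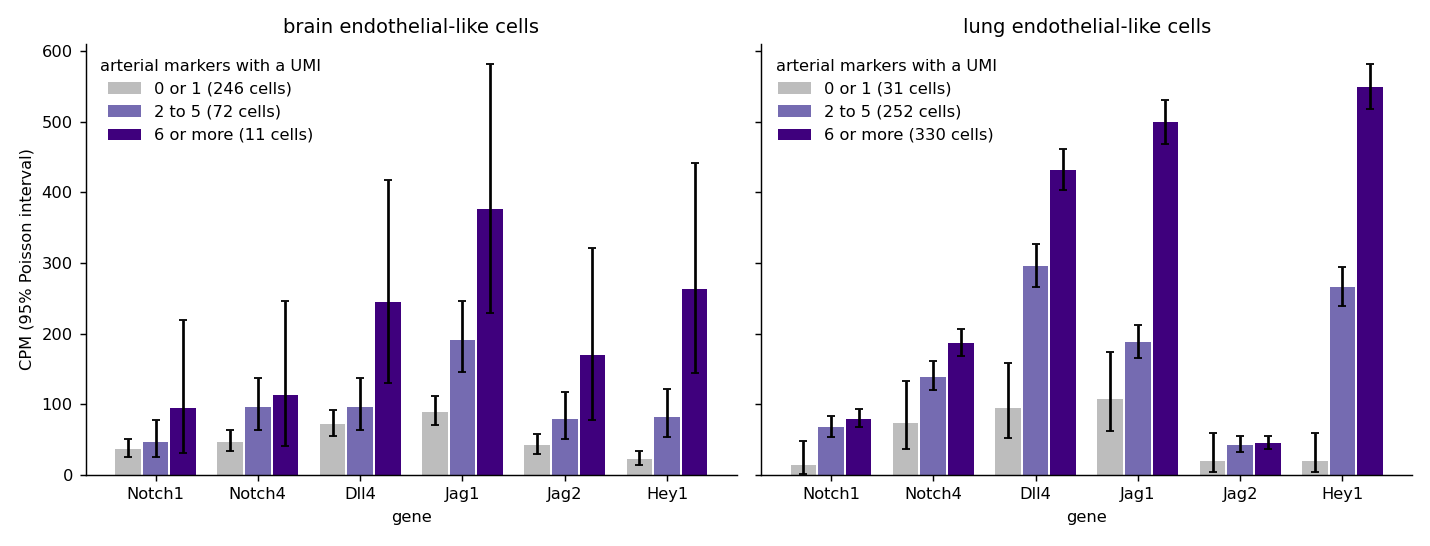
Bars give CPM with the 95% Poisson interval in endothelial-like cells of brain (left) and lung (right) grouped by the number of arterial markers with a UMI. Jag1, Dll4 and Hey1 rise over the 3 grades in both panels, Jag1 from 89.6 to 376 CPM in brain and from 107 to 499 CPM in lung.

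Endothelial-like cells with a Dll4 UMI had more Hey1. The 447 lung endothelial-like cells with a Dll4 UMI (median 5685 UMIs) had 2.15 times (1.84 to 2.54) the Hey1 level of the 166 without (4814.5 UMIs), and 1.74 times (1.46 to 2.10) the Nrarp level. Hes1 and Hey2 were lower in cells with Dll4, with ratios of 0.755 (0.647 to 0.884) for Hes1 and 0.310 (0.147 to 0.655, 17 and 16 UMIs) for Hey2. The interval of Heyl held 1 (0.903, 0.431 to 2.07), and Hes5 had 3 and 0 UMIs. The interval of the Jag1 ratio held 1 (0.933, 0.820 to 1.07), while Dll1 (0.556) and Notch3 (0.333) were lower in cells with Dll4. The same cells divided by Jag1 gave another picture for this pair, since the 383 cells with a Jag1 UMI (median 5675 UMIs) had 1.2 times (1.07 to 1.36) the Dll4 level of the 230 without (4929 UMIs). Hey1 (1.32, 1.17 to 1.48), Nrarp (1.39, 1.21 to 1.61) and Dll1 (1.88, 1.02 to 3.69) were also higher in cells with Jag1, and Hes1 was lower (0.826, 0.716 to 0.954). Depth differed in both divisions, and its part was not tested. In brain, the 74 endothelial-like cells with a Dll4 UMI had ratios of 1.99 for Hey1, 1.85 for Notch4 and 0.974 for Jag1 against the other 255, while the intervals of Nrarp (1.35, 0.640 to 2.68) and Hes1 (1.01, 0.747 to 1.34) held 1.

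Genes with the most similar pattern were sought over the 21 named classes among 12550 genes, by Pearson's r of log2(CPM + 10). The classes share libraries and depth, so r is a description. Notch3 was most like Cox4i2 (r = 0.946), itself a mural naming marker, Gucy1b3 (0.939) and Rasl11a (0.938). Dll4 was most like Myct1 (0.972), Tcf15 (0.965) and Exoc3l (0.963), Jag2 like Clic5 (0.970), Tnfsf10 (0.936) and Alox12 (0.933), and Jag1 like Col18a1 (0.801), Akap12 (0.776) and Cxcl12 (0.776). Notch4 was most like Tcf15 (0.895), Gpr116 (0.881) and She (0.877). Dll3 was most like Nell2 (0.900), Rpf2 (0.876) and Hspd1 (0.874), and Dll1 like Tox3 (0.8), Gdpd1 (0.790) and Zfp326 (0.787). Notch2 was most like Fzd7 (0.774), Oat (0.746) and Angpt1 (0.729), and Notch1 like Phf20l1 (0.775), Mapk12 (0.747) and Kctd5 (0.737). Between members and targets, Notch3 and Heyl had r = 0.863, Notch4 and Dll4 0.843, Dll4 and Jag2 0.823, and Dll1 and Dll3 0.776.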

How the data were processed

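Single-cell RNA of Nes-GFP+ cells was measured in 1 brain and 1 lung droplet library. The authors demultiplexed reads with bcl2fastq 2.19.1.403, extracted UMIs with UMI-tools 1.0.0, aligned to mm10 with STAR 2.7.1a and counted genes with featureCounts 1.6.4, as named in the submitters' processing notes. The deposited values are counts of UMIs per gene and cell barcode without normalization. The annotation version, the strand setting and the choice of barcodes are not given in the sources used here.

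The filter stated by the study was applied (over 200 genes, under 4000 genes, mitochondrial share under 40%). The cell maps of the study show 4640 brain and 5981 lung cells, the numbers of barcodes before this filter. The 4151 and 5608 cells kept here are therefore a smaller set. Scrublet (scanpy 1.11.5) called 1.06% of brain and 1.32% of lung cells as doublets, which were kept. Each library was clustered with Seurat 5.3.0 in R 4.3.3 (counts per 10000, 2000 variable genes less cell cycle, member, target and pathway genes, 20 components, resolution 0.8). A cluster took the class whose markers had the highest mean log2(CPM + 10) relative to the other clusters, where this score was at least 1, led by 0.5 and rested on 3 markers found in 20% of its cells. Shallow clusters (median UMIs under the library median divided by 3) were left unnamed. A lung cluster of 177 cells that met these rules for matrix fibroblasts was left unnamed because heart muscle genes (Tnnt2, Myl7, Tnni3) led it. The naming thresholds and this exception were set after seeing the data. UMIs were then summed per class. Poisson, conditional binomial (ratios) and Clopper-Pearson (shares) 95% intervals were computed with scipy 1.17.1, and a class without UMIs was set to a floor of 3 counts over the class for a fold. Thinned shares used 1000 UMIs per cell and left out shallower cells. The ratio calculation was tested on simulated data. No test between groups was possible with 1 library each.

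All 9 members, 6 target genes and, of 40 other pathway genes, the 5 furthest from 1 among those past 2-fold in a contrast were named, as were the 3 genes most like each member. Members, lists and tests were chosen with earlier results of these data known. Alternatives were a marker gate per cell, resolutions 0.4 and 1.2, no upper gene limit, a 20% mitochondrial limit, removal of called doublets, median-of-ratios scaling, a mean over cells and no UMI minimum. Single clusters, other numbers of arterial markers, a limit on smooth muscle markers and intervals without 1 were added after seeing the data.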

Additional observations from a re-analysis of the deposited data

Results flagged for a closer look

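For 2 members the endothelial-like over mural or pericyte-like ratio pointed in opposite directions in the brain and lung libraries. Jag1, a ligand of both layers of the vessel wall, had a ratio of 0.537 in brain and 6.49 in lung. Notch1 had a ratio of 0.403 in brain and 2.86 in lung. The difference between the libraries was not tested, since each tissue had 1 library. Under the alternatives the Jag1 ratio stayed between 0.514 and 0.560 in brain and between 5.68 and 6.73 in lung, and the Notch1 ratio between 0.373 and 0.415 and between 2.60 and 2.95. Within the lung class, pericyte-like cluster 13 had 385 CPM of Jag1 and clusters 0 and 5 had 36.6 and 42.4 CPM.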

How the results depend on the processing

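No paired analysis was possible because each tissue had 1 library and no result came from a test. Of 123 values of counts, lists and levels under the alternatives, 115 stayed within 1.5 times or within counting error, and of 661 gene ratios 620 did. No ratio past 2-fold in the main results fell on the other side of 1, but Notch3 in brain arterial-marker cells (1.36) was 0.457 with the marker gate and 2.13 at 3 or more markers. Among other ratios within 2-fold, Dll1 in lung arterial-marker cells (0.525) lay between 0.478 and 1.47, and Dll4 in smooth muscle-like over pericyte-like cells (0.830) between 0.386 with cluster 8 alone and 1.96 with called doublets removed. Counts of members past 2-fold that moved were those of smooth muscle-like over pericyte-like cells (2, but 6 with the marker gate, 5 with called doublets removed and 5 with cluster 17 alone), of lung over brain fibroblasts (3, but 5 with no UMI minimum), of brain arterial-marker cells (3, but 5 with no UMI minimum) and of lung arterial-marker cells (6, but 3 at 6 or more markers). The Hes5 ratio of aNSC-like cells with and without Dll1 was 1.09, but 0.341 with the marker gate and 0.418 at resolution 1.2, and the cause was not tested. Without an aNSC-like cluster (resolution 0.4, no upper gene limit, called doublets removed), the comparisons with that class had no value. Class and member pairs listed as sender or receiver numbered 24 to 30, against 28. Median-of-ratios scaling shifted the qNSC-like over aNSC-like contrast by 0.264 and the fibroblast contrast by 0.114 on the log2 scale. Depth limited the small classes: in the 34 microglia-like cells a count of 0 has an upper bound of 22.2 CPM.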
